A study of Mus musculus with 13 samples.

Results

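The mouse genome names many G-protein coupled receptors only by the letters Gpr and a number, a convention first used for receptors whose ligand was unknown. RNA-seq counts were examined here for genes selected on their symbol and their counts: every gene whose symbol is Gpr followed by digits and an optional letter that also had at least 10 counts in at least 3 of 6 libraries. Of 74 such symbols in the table of 55487 genes, 39 met this floor. The libraries came from sinoatrial pacemaker cells (PC) and cardiomyocytes of the right atrium (RACM), 3 libraries of each. Both were sorted by flow cytometry from neonatal mouse hearts carrying Hcn4-GFP, a reporter of the pacemaker channel gene Hcn4, together with Myh6-mCherry, a reporter of a cardiac myosin gene. Per the file headers, PC files were named for red and green and RACM files for red. The region where node and right atrium meet was pooled from 8 to 10 hearts for each biological replicate, so no value belongs to a single animal. The titles number the libraries p0, p2 and p4 in both cell types without saying what the number stands for. The p-values measure the spread between these pools.

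A G-protein coupled receptor crosses the membrane several times, binds a signal outside the cell or in a vesicle and activates a heterotrimeric G protein inside. Receptors that act through Gs raise cAMP and those that act through Gi lower it, and in the pacemaker cell cAMP binds the HCN4 channel and sets the rate of firing. A Gpr symbol does not make a gene an orphan receptor. Gpr4, Gpr65 and Gpr132 are known as receptors that respond to protons or lipids, Gpr183 binds oxysterols, and Gpr107, Gpr108, Gpr137, Gpr137b, Gpr155 and Gpr89 encode multipass proteins of the Golgi, lysosome or other inner membranes. The genes are therefore called Gpr genes in what follows.

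Total counts ranged from 14141151 to 22290996. Summed over 9 pacemaker markers, CPM (counts scaled to the size of each library) lay between 5547 and 5731 in PC and between 268 and 398 in RACM. Markers of macrophages, 12 of 12 of which had counts, summed to 11.5 to 56.1 CPM in PC and 198 to 888 CPM in RACM. Fibroblast markers (8 of 8 with counts) summed to 847 to 2174 CPM in PC and 1600 to 10723 CPM in RACM. Endothelial markers (8 of 8) lay between 46.2 and 113 CPM in PC and between 106 and 164 CPM in RACM. Neuron markers other than Uchl1, which was at 113 CPM in PC against 5.36 CPM in RACM, summed to 2.79 to 5.91 CPM in PC and 4.09 to 6.70 CPM in RACM. In these bulk samples, fewer cells of a type and less RNA per cell cannot be told apart.

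The rule used the counts of each library and not the difference between cell types. Among the 39 genes, 36 reached 10 counts in at least 1 library of each cell type. The other 3 (Gpr17, Gpr65 and Gpr132) reached it in RACM libraries alone, so they had to be higher there, and their levels are given without a test. Just inside the floor, with 10 counts in exactly 3 libraries, stood Gpr17, Gpr45, Gpr63, Gpr65 and Gpr132. Just outside it, with 10 counts in 2 libraries, stood Gpr34 (6, 7 and 2 counts across PC (p0, p2, p4), and 9, 24 and 47 in RACM) and Gpr176 (0, 1 and 2 against 5, 18 and 36). Of the 35 symbols below the floor, 12 had no count in any library.

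**Figure D1:**
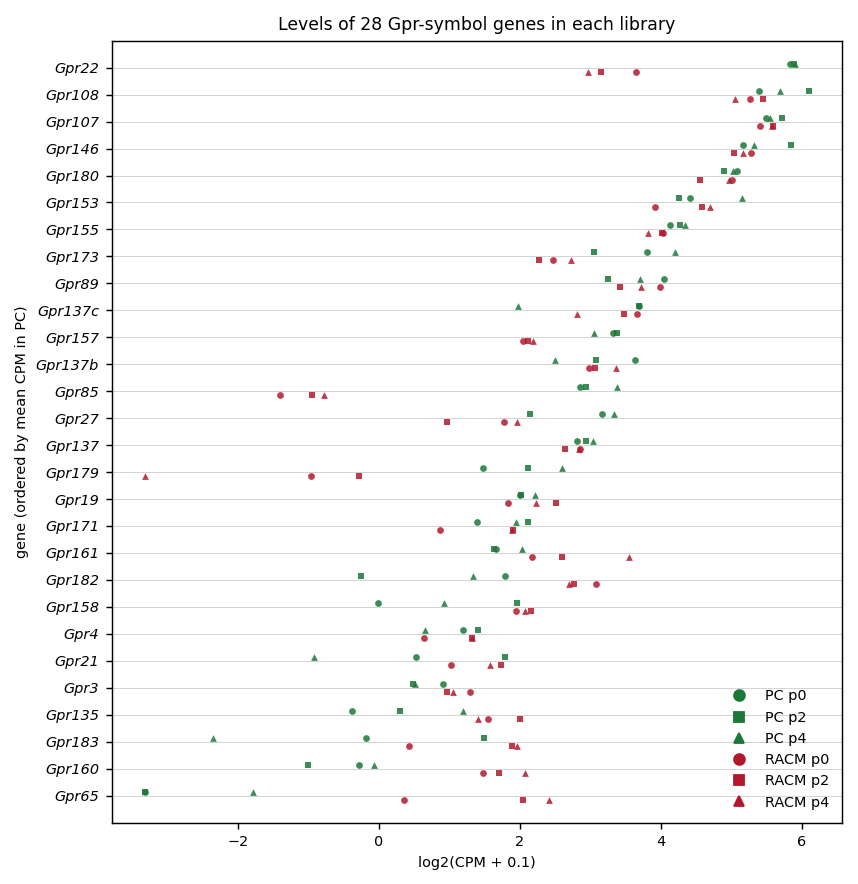
Level in every library of the 28 Gpr genes with a mean of at least 2 CPM in a cell type, as log2(CPM + 0.1) on the horizontal axis, with genes on the vertical axis in the order of their mean in PC. Green marks are PC and red marks RACM libraries, with circles for p0, squares for p2 and triangles for p4, and Gpr22 and Gpr85 show green marks far to the right of the red ones.

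PC were compared with RACM to ask which of these genes set pacemaker cells apart from neighbouring atrial muscle. Gpr22 and Gpr85 were higher in PC and Gpr160 was lower, and the remaining 33 of 36 genes did not pass the test (edgeR quasi-likelihood test with Benjamini-Hochberg adjustment over all 18015 genes tested, adjusted p below 0.05). Of all genes tested, 7.27% passed, 3.69% higher and 3.57% lower in PC, and 3 of 36 Gpr genes is 8.33%, close to that share. Gpr85 and Gpr160 met the count floor only with the libraries of the cell type where they were high (3 of PC and 1 of RACM at the floor for Gpr85, 2 of PC and 3 of RACM for Gpr160), so this count is a description and supports nothing about the genes as a group. The median log2 fold change of the 36 genes, PC minus RACM, was 0.03, and that of all genes tested was 0.01. In 7 of the 36 genes every PC library stood above every RACM library, and in 5 every RACM library stood above every PC library. This was so for 13.5% and 13.4% of all genes tested, 26.9% together. With the p number as a block in the fit, Gpr173 passed as well, giving 3 genes higher and 1 lower, where 5.96% of all genes tested were higher and 5.6% lower.

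**Figure D2:**
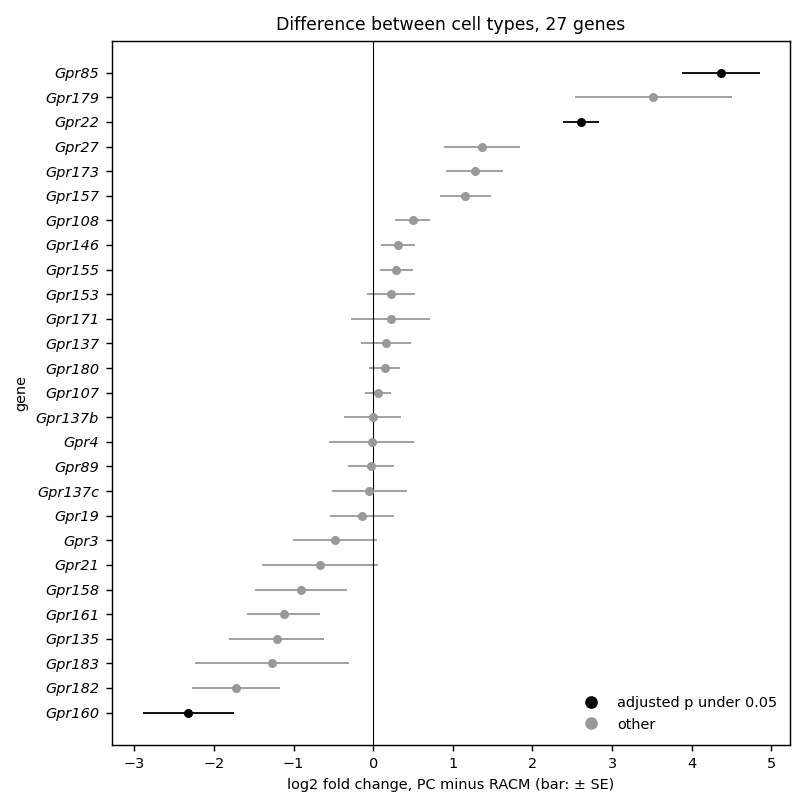
Log2 fold change (PC minus RACM, horizontal axis, bars ± SE from the edgeR fit) of the 27 Gpr genes that reached the count floor in both cell types and a mean of at least 2 CPM in one of them, with genes on the vertical axis. Black points passed an adjusted p of 0.05, and these are Gpr85 at 4.37, Gpr22 at 2.61 and Gpr160 at -2.32.

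Gpr22 encodes an orphan receptor known from heart and brain (ENSMUSG00000044067, mm10 chromosome 12 from 31706867 to 31713947, minus strand). It stood at 56.9, 59.4 and 59.7 CPM across PC (p0, p2, p4), and at 12.4, 8.79 and 7.70 CPM across RACM in that order. The lowest PC library was thus far above the highest RACM library, and the PC libraries lay within a narrow range. The log2 fold change was 2.61 ± 0.22 (SE, edgeR adjusted p = 3.00e-04), with means of 58.7 ± 1.56 CPM in PC against 9.62 ± 2.44 CPM in RACM (SD, n = 3), a ratio of 6.10. The call held without any 1 library, at an adjusted p from 5.29e-04 to 0.0034.

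Per kilobase of exon, which allows levels of different genes to be compared, Gpr22 was at 12.7 ± 0.34 CPM per kb in PC and ranked 3 of 39. In RACM it was at 2.09 ± 0.53 CPM per kb and ranked 8. Above it in PC stood Gpr108 at 18.9 ± 4.74 and Gpr180 at 17.0 ± 1.09 CPM per kb, whose ranges of mean ± SD overlap each other. The next in order was Gpr146 at 6.51 ± 1.69 CPM per kb. The gene lies whole within the span of Cog5, on the opposite strand, and shares no exon base with it. Cog5, a subunit gene of a Golgi trafficking complex, was at 76.2 ± 9.92 CPM in PC against 63.6 ± 6.23 CPM in RACM and did not pass (log2 fold change 0.26 ± 0.17, edgeR adjusted p = 0.437).

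Gpr85 encodes 1 of the super-conserved receptors expressed in brain, a small group with Gpr27 and Gpr173 that is among the most conserved of vertebrate receptors and has no agreed ligand (ENSMUSG00000048216, chromosome 6 from 13834458 to 13839942, minus strand). It was at 7.14, 7.52 and 10.3 CPM across PC (p0, p2, p4), and at 0.276, 0.419 and 0.481 CPM in RACM, or 479 counts over the PC libraries against 21 over the RACM libraries. Every PC library lay far above every RACM library. The log2 fold change was 4.37 ± 0.48 (edgeR adjusted p = 0.00126), the largest rise among the 36 genes, and the call held without any 1 library (adjusted p 0.00341 to 0.0109). All 3 PC libraries reached 10 counts and only 1 RACM library did, so its PC libraries alone met the rule, as did those of Gpr179. No exon base of Gpr85 was shared with another gene.

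The other members of that receptor group, picked out after their values were seen, also had every PC library above every RACM library but did not pass the test. Gpr173 (chromosome X from 152343598 to 152368704, minus strand) was at 13.8, 8.20 and 18.3 CPM across PC (p0, p2, p4) and at 5.46, 4.73 and 6.50 CPM in RACM. Its log2 fold change was 1.27 ± 0.36 (edgeR adjusted p = 0.0697), and with the p number as a block it passed (log2 fold change 1.22, adjusted p = 0.0329), as did 11.6% of all genes tested. Gpr27, a gene of 1 exon (chromosome 6 from 99692679 to 99695066, plus strand), was at 8.86, 4.30 and 10.0 CPM in PC against 3.32, 1.85 and 3.80 CPM in RACM. Its log2 fold change was 1.37 ± 0.47 (adjusted p = 0.128, and 0.0511 with the block). In both genes the p2 library was the lowest of its cell type, whereas Gpr85 was lowest in p0 in both. Without the PC p2 library Gpr173 passed (edgeR adjusted p = 0.0396), and it did not pass when any other library was left out (adjusted p 0.125 to 0.238).

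**Figure D3:**
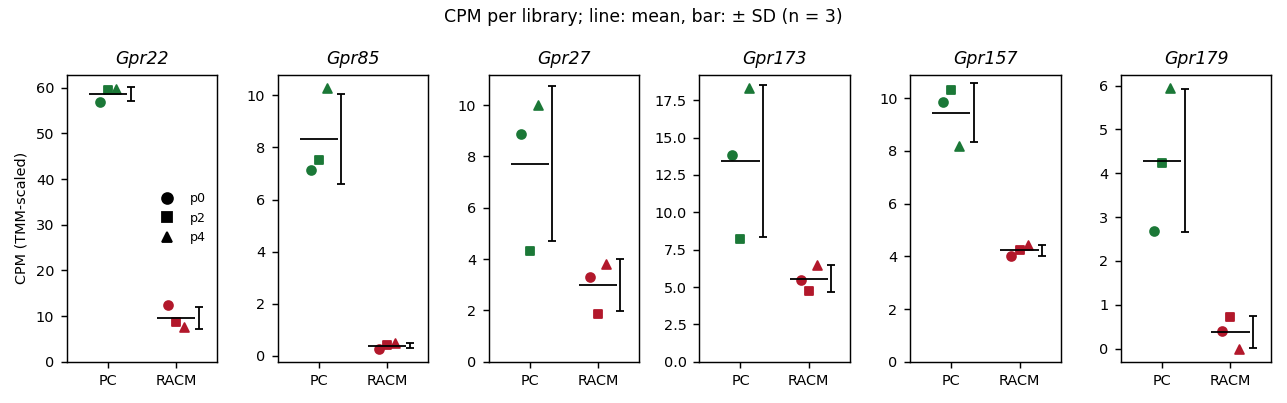
CPM in each library (vertical axes, each from about 0) for 6 Gpr genes whose 3 PC libraries (green) all lay above the 3 RACM libraries (red). Circles are p0, squares p2 and triangles p4, lines are means and bars ± SD, and only Gpr22 and Gpr85 passed the test across all genes.

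Gpr157 and Gpr179 were further genes with PC libraries above RACM libraries and an adjusted p just over the threshold. Gpr157, a receptor known from the primary cilium of neural progenitors, was at 9.87, 10.3 and 8.17 CPM across PC (p0, p2, p4) and at 4.01, 4.25 and 4.43 CPM in RACM. The replicates were close together, and the log2 fold change of 1.16 ± 0.32 did not pass (edgeR adjusted p = 0.0652). Gpr179, a class C receptor known from bipolar cells of the retina, was at 2.68, 4.24 and 5.95 CPM in PC against 0.414, 0.718 and 0 CPM in RACM, where the last library had no count, which allows up to 0.144 CPM. Its log2 fold change was 3.52 ± 0.99 (adjusted p = 0.0675). Gpr155, a cholesterol sensor of the lysosome, completed the 7 genes with PC above, with a difference of only 0.29 ± 0.21 (18.9 against 15.5 CPM, adjusted p = 0.496).

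Of the list of neural and glial receptors, 12 Gpr genes reached the floor in both cell types. Gpr22 and Gpr85 rose, none fell, 5 had PC libraries above RACM libraries, and the median log2 fold change was 0.97. For all genes tested the median was 0.01, and 3.69% were higher and 13.5% had PC above. Gpr85 and Gpr179 met the floor with their PC libraries alone, and Gpr17, which met it in RACM alone, was left out. The filter thus tilts these counts and this median toward PC, and they support nothing about the list. Of the others, Gpr153, an orphan receptor, was at 25.2 ± 8.82 CPM in PC against 21.6 ± 5.80 CPM in RACM (log2 fold change 0.22, edgeR adjusted p = 0.747). Gpr158, a receptor for glycine of class C, was at 2.16 ± 1.48 CPM in PC against 4.06 ± 0.32 CPM in RACM (adjusted p = 0.43). Neuron markers were uneven. Chat was at 0.0157 CPM and Snap25 at 0.200 CPM in PC, both with no count in RACM, and Prph had no count in PC and 0.254 CPM in RACM. Elavl4 was at 2.89 CPM in PC against 4.24 CPM in RACM, Tubb3 at 0.707 and 0.630 CPM and Stmn2 at 0.260 and 0.152 CPM, while Uchl1 was far higher in PC, as given above. The part of neurons in these levels was not tested.

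Gpr160, an orphan receptor, was the only 1 of the 36 genes that fell (ENSMUSG00000037661, chromosome 3 from 30855950 to 30897192, plus strand). It was at 0.725, 0.396 and 0.850 CPM across PC (p0, p2, p4) and at 2.69, 3.17 and 4.09 CPM in RACM, with no overlap. The log2 fold change was -2.32 ± 0.58 (edgeR adjusted p = 0.0438). The call was lost without any 1 of the 6 libraries, at an adjusted p from 0.0613 to 0.189.

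The sequences before the annotated start are shown for the 3 genes that passed, so that the gene starts behind the changed levels can be compared. Each runs 5′ to 3′ on the gene's strand, from RefSeq (GRCm38.p6, the assembly of mm10), and ends just before the first exon base of the gene in the table. Capitals mark CCAAT or its reverse complement ATTGG, the GC box GGGCGG or CCGCCC, and TATAAA or TTTATA.
Gpr22, chr12:31713948-31714133, minus strand: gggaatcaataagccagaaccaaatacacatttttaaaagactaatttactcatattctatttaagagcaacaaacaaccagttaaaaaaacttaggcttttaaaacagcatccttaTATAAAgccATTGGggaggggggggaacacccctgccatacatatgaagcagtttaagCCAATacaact
Gpr85, chr6:13839943-13840192, minus strand: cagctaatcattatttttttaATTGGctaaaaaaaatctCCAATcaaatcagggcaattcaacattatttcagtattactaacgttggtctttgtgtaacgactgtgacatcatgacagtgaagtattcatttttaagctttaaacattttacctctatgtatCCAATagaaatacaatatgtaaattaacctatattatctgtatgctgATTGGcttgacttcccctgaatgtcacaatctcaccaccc
Gpr160, chr3:30855700-30855949, plus strand: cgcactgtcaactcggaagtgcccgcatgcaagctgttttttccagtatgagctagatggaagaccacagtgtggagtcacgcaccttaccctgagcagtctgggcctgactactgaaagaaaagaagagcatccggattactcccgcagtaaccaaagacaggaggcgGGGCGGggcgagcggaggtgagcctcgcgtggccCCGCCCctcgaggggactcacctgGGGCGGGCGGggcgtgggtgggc
The 250 bases before the RefSeq start held 39.6% G and C in Gpr22, 32.0% in Gpr85 and 62.4% in Gpr160, against a median of 52.4% over 32851 RefSeq windows. They held 1, 2 and 17 CpG, against a median of 6. CCAAT on either strand was found 4 times before Gpr85, 3 times before Gpr22 (2 of them in the printed part) and not before Gpr160. Of all windows, 33.8% held CCAAT and 2.79% held 3 or more. GGGCGG was found 4 times before Gpr160, with 1 overlap between matches, and not before the others. It was held by 32.7% of all windows, and 4.09% held 4 or more. TATAAA stood before Gpr22 alone (12.4% of all windows). Neither the T-box sequence AGGTGTGA (1.12% of windows) nor the homeobox core TAATTA (4.84%), on either strand, was found in these 3 windows. Gpr173 had a window with 58.8% G and C and none of these motifs. Of the 39 genes, 30 had a window. A match is a description of letters and not of binding.

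Receptors of immune cells include some with few counts in PC, and their levels are set beside those of macrophage markers. Gpr65, a proton sensor of leukocytes, was at 0, 0 and 0.189 CPM across PC (p0, p2, p4) and at 1.17, 4.01 and 5.20 CPM in RACM. This came from 4 counts over PC and 192 over RACM, a RACM over PC ratio of 52.4 with a 95% exact binomial counting interval from 20.2 to 194. All 4 PC counts were in p4, so without that library PC has no count and the ratio has no upper bound. Of its exon bases, 24.7% were shared with Gm47566 on the opposite strand, and reads were counted without regard to strand. Gpr132, another receptor of leukocytes, was at 0.167, 0.0566 and 0 CPM in PC against 0.691, 2.03 and 1.88 CPM in RACM, with 4 against 83 counts (ratio 22.7, interval from 8.53 to 85.2). Intervals cover counting error only.

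Gpr183, which guides immune cells along oxysterol gradients, varied widely within PC, at 0.780, 2.71 and 0.0945 CPM, and was at 1.24, 3.59 and 3.80 CPM in RACM. The groups overlapped and the log2 fold change of -1.27 ± 0.96 did not pass (edgeR adjusted p = 0.523). Gpr35 was at 1.08 ± 0.14 CPM in PC against 1.91 ± 1.01 CPM in RACM, and Gpr82 at 0.951 ± 0.27 and 1.84 ± 1.24 CPM. Gpr18, a receptor of lymphocytes, was at 0.715 and 1.24 CPM, and Gpr171 was at 3.49 and 3.00 CPM in PC and RACM. In all, 6 genes of the immune list reached the floor in both cell types, of which 1 (Gpr160) fell and none rose, and 5 of 6 had the higher mean in RACM. Of all genes tested, 3.57% fell and 8918 of 18015 had the higher mean in RACM. Gpr160 and Gpr183 met the floor with their RACM libraries alone, and Gpr82 with its PC libraries alone. Gpr65 and Gpr132, which met it in RACM alone, were left out. The filter thus shapes these counts, and they support nothing about the list.

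Summed macrophage markers stood at 31.2, 11.5 and 56.1 CPM across PC (p0, p2, p4) and at 198, 514 and 888 CPM in RACM. In RACM, Gpr65, Gpr132, Gpr183, Gpr35, Gpr82 and Gpr171 were lower in p0 than in p2 and p4, as were these markers. Gpr160 followed the order of the marker sums over the RACM libraries within a narrower range, from 2.69 to 4.09 CPM. Gpr18 went the other way, with 2.28 CPM in RACM p0 and 0.718 and 0.722 CPM in p2 and p4. In PC the markers were lowest in p2 and highest in p4, whereas Gpr183, Gpr35 and Gpr82 were highest in p2 and lowest in p4. Gpr160 followed the order of the markers in PC, Gpr65 had its only PC counts in p4, and Gpr132 had no count in PC p4. Lymphocyte markers summed to 0.0566 to 0.331 CPM in PC and 0.829 to 10.7 CPM in RACM, and Nkg7 was at 0 in every library. Lymphocyte, fibroblast and endothelial marker sums were also lowest in RACM p0. So were Gpr4 and Gpr153, outside the immune list, while Gpr22 and Gpr182 were highest there. The part of macrophages or of other cells in these levels was not tested.

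**Figure D4:**
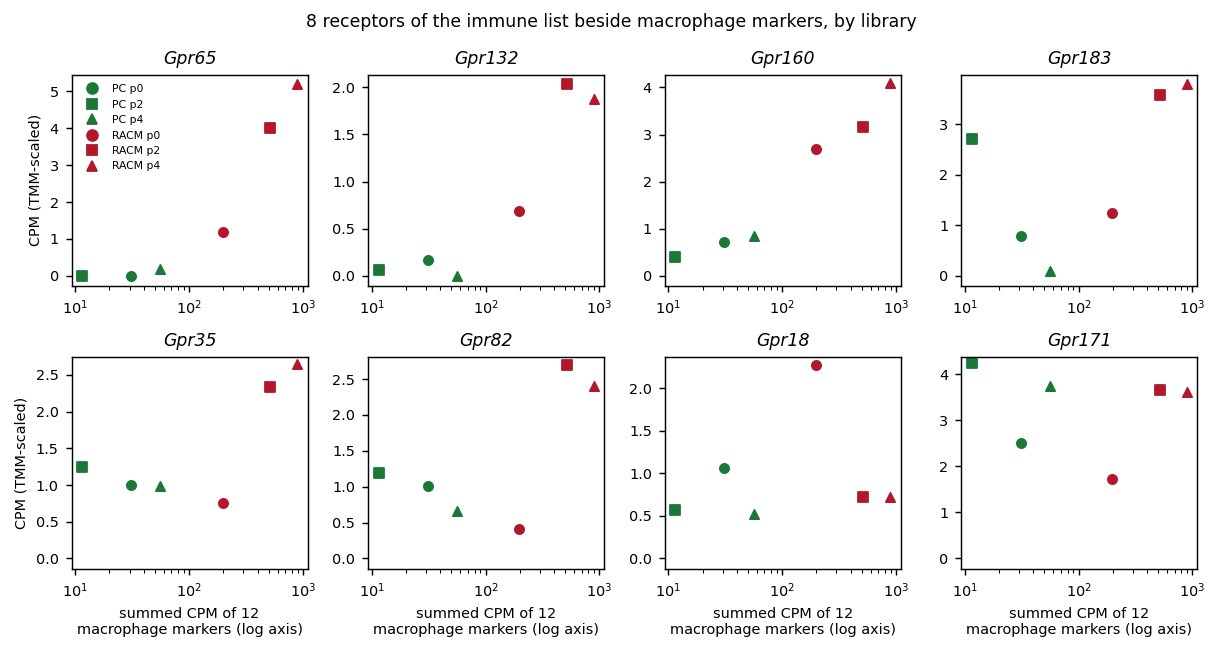
CPM of the 8 Gpr genes of the immune list (vertical axes) against the summed CPM of 12 macrophage markers (horizontal log axes) in each library. Green marks are PC and red marks RACM (circle p0, square p2, triangle p4). Gpr65, Gpr132 and Gpr160 are higher in every RACM library than in any PC library, while Gpr183, Gpr35, Gpr82, Gpr18 and Gpr171 overlap between the cell types.

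Among proton sensors, Gpr4, known from endothelium, did not differ detectably and had nearly equal means in both cell types. It was at 2.17, 2.55 and 1.46 CPM in PC against 1.45, 2.39 and 2.41 CPM in RACM (log2 fold change -0.02 ± 0.53, edgeR adjusted p = 0.99). The standard error leaves room for a sizeable difference in either direction.

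In the list of vascular and other peripheral receptors, Gpr182, a scavenger of chemokines on endothelium, was at 3.34, 0.735 and 2.41 CPM in PC against 8.36, 6.70 and 6.40 CPM in RACM. The libraries did not overlap, and the log2 fold change of -1.72 ± 0.55 did not pass (edgeR adjusted p = 0.105). Summed endothelial markers were 82.8, 46.2 and 113 CPM in PC against 106, 109 and 164 CPM in RACM. Gpr182 was lowest in PC p2, as they were, but in RACM it fell from p0 to p4 where they rose. The part of endothelial cells in its level was not tested. Gpr146, a receptor that acts on cholesterol metabolism in liver, was at 44.2 ± 11.5 CPM in PC against 35.6 ± 2.94 CPM in RACM (log2 fold change 0.31, adjusted p = 0.473). Gpr135 was at 1.32 ± 0.77 and 3.09 ± 0.71 CPM in PC and RACM (-1.21, adjusted p = 0.29). Of 6 genes of this list none passed by edgeR or limma-voom, 2 had an unadjusted p below 0.05, and 2 passed by DESeq2 (Gpr157 and Gpr182). Among all 18015 genes tested, 3804 had an unadjusted edgeR p below 0.05 and 2304 passed by DESeq2.

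The list of receptors that raise cAMP without a ligand, to which the ciliary receptor Gpr161 was added but not Gpr157, held 3 measured genes, none of which passed. Gpr161, which restrains hedgehog signalling from the cilium, was at 3.07, 3.00 and 3.97 CPM in PC against 4.42, 5.92 and 11.5 CPM in RACM. The libraries did not overlap, yet the log2 fold change of -1.13 ± 0.46 did not pass (edgeR adjusted p = 0.193). In RACM p0, p2 and p4, fibroblast markers summed to 1600, 3687 and 10723 CPM, in the same order as Gpr161. Macrophage, lymphocyte and endothelial marker sums rose in that order too, and the part of these cells was not tested. Without RACM p4 the change of Gpr161 was -0.63. Gpr3, which activates Gs without a ligand, was at 1.47 ± 0.27 CPM in PC against 2.06 ± 0.26 CPM in RACM (-0.48 ± 0.53, adjusted p = 0.678), with no overlap of the libraries. Gpr21 lies within Rabgap1 on the same strand, at 1.70 and 2.68 CPM against 112 and 99.2 CPM for that gene. Of these 3 genes none passed by edgeR, DESeq2 or limma-voom, and 1 (Gpr161) had an unadjusted p below 0.05. Among all 18015 genes tested, 3804 had such an unadjusted p.

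The inner-membrane proteins with a Gpr symbol differed little between the cell types. Of 8 measured, none passed by edgeR, DESeq2 or limma-voom, and log2 fold changes ranged from -0.05 to 0.50. An unadjusted p below 0.05 was found for 1 of them (Gpr108) and for 3804 of all 18015 genes tested. Gpr107, a protein of the Golgi network, was at 48.1 ± 4.15 CPM in PC against 45.9 ± 3.30 CPM in RACM. Gpr108, its paralogue, was at 54.1 ± 13.6 and 38.3 ± 5.28 CPM (log2 fold change 0.50 ± 0.22, edgeR adjusted p = 0.231). Gpr180 was at 31.9 ± 2.04 and 28.9 ± 4.69 CPM, and Gpr137, a lysosomal protein with 15.4% of its exon bases shared with Bad, at 7.54 ± 0.61 and 6.75 ± 0.56 CPM. Gpr137b, a paralogue of the lysosome, had means of 8.72 and 8.75 CPM, and Gpr137c of 9.83 and 10.2 CPM, where the PC p4 library (3.83 CPM) stood well below p0 and p2 (12.8 CPM each). Gpr89, a Golgi ion channel that shares 27.9% of its exon bases with Pdzk1, was at 12.9 and 13.2 CPM.

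The remaining members were low. In all, 18 genes that reached the floor in both cell types and did not pass had means under 5 CPM in both, from 0.377 to 4.55 CPM, the smallest adjusted p being 0.0675. Those not described above included Gpr19 (4.13 CPM in PC against 4.55 CPM in RACM), Gpr75 (1.79 and 1.23 CPM), Gpr162 (1.29 and 0.670 CPM), Gpr63 (1.14 and 0.565 CPM) and Gpr45 (0.612 and 0.407 CPM). Gpr63 had 41, 0 and 24 counts across PC (p0, p2, p4), so its mean rests on uneven libraries. Gpr17, known from the oligodendrocyte lineage, was at 0.334, 0.283 and 0.236 CPM in PC against 0.967, 0.718 and 1.25 CPM in RACM (16 against 52 counts, RACM over PC ratio 3.55, counting interval from 2.00 to 6.66). It lies within Lims2, on the opposite strand, which was at 20.1 and 20.4 CPM.

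Positions among other genes are given because reads were counted without strand and total RNA can hold introns. Their part in these levels was not tested. Of the 39 genes, 9 lay whole within the span of another gene and 16 shared exon bases with another gene. Gpr18 and Gpr183 lie within Ubac2, Gpr171 within Med12l, and Gpr82 within Cask, all on the opposite strand. None of the 7 host genes passed the test by edgeR (adjusted p from 0.393 to 0.975).

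Genes that act with these receptors, and genes of other receptor groups, were taken from lists. Each list was used whole but need not hold every gene of its family. Of 23 measured G protein subunit genes none rose and 1 fell, at a median log2 fold change of -0.14; of all genes tested 3.69% rose and 3.57% fell. The gene that fell was Gng12, a gamma subunit, at 25.8, 27.0 and 22.9 CPM in PC against 41.1, 48.0 and 50.4 CPM in RACM (log2 fold change -0.88 ± 0.18, edgeR adjusted p = 0.0199). Leaving out p0 or p4 of PC, or p2 or p4 of RACM, ended the call (adjusted p 0.0576 to 0.0961). With the p number as a block 3 subunit genes passed, beside 11.6% of all genes: besides Gng12, Gnao1 of the Gi/o class (452 against 303 CPM, log2 fold change 0.58) was higher and Gnai2 (82.4 against 130 CPM) was lower.

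Of 7 genes of receptor kinases and arrestins, which switch receptors off, none rose and 2 fell, at a median of -0.25, beside 3.57% of all genes that fell. Grk5, a kinase known from heart, was at 31.4 ± 2.95 CPM in PC against 72.8 ± 7.49 CPM in RACM (log2 fold change -1.21 ± 0.17, edgeR adjusted p = 0.004). The groups were well apart, and the call held without any 1 library. Arrb2, an arrestin, was at 4.12 and 13.5 CPM (-1.72, adjusted p = 0.0426), and its call was lost without any 1 library other than RACM p0 (adjusted p 0.101 to 0.182). In RACM it stood at 7.18, 12.5 and 20.8 CPM in p0, p2 and p4. The sums of macrophage, lymphocyte, fibroblast and endothelial markers all rose in that order. The order cannot tell these cells apart, and their part was not tested.

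Of 20 measured adhesion receptor genes, 2 rose and 2 fell, beside 7.27% of all genes that passed. With the p number as a block 2 were higher and 4 lower, Adgre5 (adjusted p = 0.0178) and Adgrg6 (0.0371) being added, where 11.6% of all genes passed. Adgrb2, a receptor of the brain angiogenesis inhibitor group, was at 31.4 ± 7.21 CPM in PC against 6.85 ± 1.42 CPM in RACM (log2 fold change 2.20 ± 0.27, edgeR adjusted p = 0.00211). Adgrd1, which couples to Gs, was at 32.6, 49.4 and 13.3 CPM in PC against 3.73, 7.12 and 2.12 CPM in RACM (2.88 ± 0.56, adjusted p = 0.0171), which did not pass when either of the PC libraries p0 (adjusted p = 0.0619) and p2 (0.0509) was left out. The genes that fell were Adgre1, which is itself a macrophage marker (-4.70), and Adgre4 of the same group (-3.26, edgeR adjusted p = 0.0486). Adgre1 reached 10 counts in 2 PC libraries and Adgre4 in 1, against 3 RACM libraries for each. Their RACM libraries alone thus met the filter, and the count of genes that fell is a description only. Of 6 measured Gprc and Lgr genes none passed by edgeR or limma-voom, and 2 had an unadjusted p below 0.05. Only 1 (Lgr6) passed by DESeq2 and, with the block, by edgeR (adjusted p = 0.0151). Among all 18015 genes tested, 3804 had such an unadjusted p and 2304 passed by DESeq2. Ch25h, the enzyme that makes the precursor of the Gpr183 ligand, was at 0.147 CPM in PC against 4.03 CPM in RACM (-4.74 ± 0.95, edgeR adjusted p = 0.0199). It reached 10 counts in 3 RACM libraries and in 0 PC libraries. The filter thus fixed its direction, and its call supports nothing. Cyp7b1 did not pass (edgeR adjusted p = 0.857) and Hsd3b7 had no count in any library. The call of Ch25h ended when p0 or p4 of PC, or p2 or p4 of RACM, was omitted (edgeR adjusted p 0.0523 to 0.0909). In RACM the gene was at 1.66, 3.17 and 7.26 CPM where macrophage markers summed to 198, 514 and 888 CPM. Lymphocyte, fibroblast and endothelial marker sums rose in the same order, and the part of these cells was not tested.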

How the data were processed

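The deposited table gives raw counts for each gene; per the file headers the authors ran featureCounts 2.0.1 over exons, with no strand option, and the build is mm10 per the labels; its column of exon length is in bases. The submitters' processing notes also list Trimmomatic, HISAT2 and edgeR, with no version, and RNA was amplified with the Ovation V2 kit, per the labels' protocols. Of 55487 gene IDs, 55141 matched a symbol. Genes passing filterByExpr (minimum count 10, total 15; 18015 genes) were scaled by TMM before the quasi-likelihood 2-sided test of edgeR 4.0.16 under R 4.3.3 and Benjamini-Hochberg adjustment at 0.05; the SE is the log2 fold change over the square root of F. Ratio intervals are exact binomial (95%), and a count of 0 allows 3 counts. No exact permutation test is given, since 3 against 3 libraries cannot go below 0.1.

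The members, lists and tests were chosen with earlier results of these data known. Levels are given for Gpr genes that passed or reached 5 CPM in a cell type, with the test result for most. For inner-membrane proteins other than Gpr108 and Gpr155, the main results give log2 fold changes as a range. From other lists, called genes are named, up to the 3 of smallest p and the first of opposite sign. Genes named outside this rule were chosen after their values were seen. Deviations of same-numbered libraries correlated by 0.219, 0.306 and 0.281 for p0, p2 and p4, so the numbers may pair the libraries, a reading that no label gives. The main fit did not use this pairing. Adjusted p-values of edgeR, and the counts of genes that passed, come from the fit without the block unless the block is named. In simulated data of 18015 genes the test of PC against RACM recovered 16%, 56%, 78% and 84% of 50 genes changed 2-, 4-, 8- and 16-fold and called 16 unchanged genes. Tried in place of these choices were scaling by RLE or the upper quartile, no filter, a filter of 1 CPM throughout a cell type, the replicate block, DESeq2 1.42.0, limma-voom (limma 3.58.1), each library left out, and other floors. ATAC-seq (7 samples) was not analysed here, and some genes of the lists are not reported here.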

Additional observations from a re-analysis of the deposited data

How the results depend on the processing

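Gpr22 and Gpr85 passed under all 14 settings tried across genes. Of 18 named Gpr genes with a test, 14 kept their direction throughout and 10 also their side of the threshold. The 3 Gpr genes that passed became 6 with no filter on low counts (Gpr173, Gpr179 and Gpr182 added) and 7 by DESeq2 (those and Gpr157), 4 with the replicate block (Gpr173 added), 4 with a filter of 1 CPM (Gpr179 added), and 2 to 3 with each library left out. A floor of 10 counts in all 6 libraries left 25 Gpr genes, of which 1 passed (Gpr22). A mean of 10 counts over the 6 libraries gave 40 genes, of which 5 passed, beside 7.27% of all genes tested. Gpr65 and Gpr132, given above without a test, were among the 5. They met this mean through their RACM counts (192 and 83, against 4 each in PC). Their direction was thus fixed by the floor, and their passing supports nothing. With the replicate block Gpr132 did not pass (edgeR adjusted p = 0.0707). Gpr160 did not pass by limma-voom (adjusted p = 0.0595) or without both p4 libraries (0.16), a setting chosen after seeing the data, which left 2 Gpr genes.

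The 1309 genes called in all became 2339 with no filter, 2082 with the replicate block, 2304 by DESeq2, 734 without both p4 libraries and 511 to 1338 with each library left out (PC p0 left out 570, PC p2 763, RACM p2 511 and RACM p4 727). The 8 called on the lists of acting partners and other receptors became 14 with no filter and 13 with the block. They became 3 by limma-voom, 5 without both p4 libraries and 3 to 11 with each library left out. Changes near 0 turned sign with a library left out: Gpr137b ranged from -0.34 to 0.24, Gpr137c from -0.29 to 0.34, Gpr153 from -0.095 to 0.40 and Gpr89 from -0.23 to 0.16, and without both p4 libraries Gpr137b was at 0.34 and Gpr137c at 0.10. The causes were not tested. The block changed no call of a named Gpr gene other than Gpr173 and Gpr132. In 22 Gpr genes both means were under 5 CPM, where depth limits what can be seen.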

Other observations

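Some Gpr genes below the count floor had all or most of their counts in a single library. Gpr55, a receptor for lysophosphatidylinositol, had 41 counts in RACM p2, 3 in RACM p0, 2 in RACM p4 and none in PC. Gpr50 had 13 counts in PC p0 and none elsewhere, Gpr31b had 12 in PC p4 and none elsewhere, and Gpr39, a zinc receptor, had 15 in RACM p4 and 1 in RACM p0. Among the 12 symbols with no count in any library were Gpr6 and Gpr12, which with Gpr3 form a group of receptors that raise cAMP without a ligand, so of these 3 only Gpr3 was seen in these libraries.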
